A study of Mus musculus with 6 samples.

Results

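The IL-4, STAT6 and GATA3 response genes are 6 genes of the mouse: Il4ra, Stat6, Gata3, Nfil3, Socs1 and Socs3. They were chosen by symbol, for their place in the IL-4 pathway, from a table of 18122 rows. Each symbol had 1 row, and all 6 genes passed the filter of a mean of at least 1 FPKM, as did 9691 rows in all. FPKM counts the fragments of a gene per kilobase of its length and in proportion to the depth of its library.

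RNA was sequenced in bulk from CD8+ T cells of lymph nodes of mice lacking Dusp2 (Dusp2KO) and of wild-type (WT) mice. Dusp2 encodes a nuclear phosphatase of MAP kinases. Cells of both genotypes spent 18 h in wells coated with 1 µg/mL of anti-CD3, in medium with 1 µg/mL of anti-CD28, 50 ng/mL of IFN-α and 20 ng/mL of IL-4, a mixture used to make virtual memory T cells in vitro, and were then sorted by the surface protein CD44. The groups were CD44hi Dusp2KO (n = 2), CD44hi WT (n = 2), CD44lo Dusp2KO (n = 1) and CD44lo WT (n = 1). No culture without IL-4 was analysed here, so the values are levels in cells that had IL-4, and not responses to it. Whether the 2 libraries of a CD44hi group are separate animals or cultures is not in the labels, and p-values measure only the spread between them, which may be technical. The sources used here do not give age, sex or strain of the mice, or whether the Dusp2 deletion is limited to T cells.

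IL-4 binds a receptor chain, IL-4Rα, that in lymphocytes pairs with the common gamma chain encoded by Il2rg. The kinases JAK1 and JAK3 then phosphorylate the receptor tail, STAT6 docks there, is phosphorylated in turn and acts in the nucleus as a transcription factor. In CD4 T cells STAT6 raises Gata3, the factor of type 2 helper cells, and in mouse CD8 T cells IL-4 is known to promote memory-phenotype cells that express Eomes. SOCS proteins close the circuit: they are induced by cytokines and inhibit JAK kinases or their receptors.

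The labels were checked first. Dusp2 was at 0 and 0.0283 FPKM in CD44hi Dusp2KO, 82.6 and 83.9 FPKM in CD44hi WT, 0 FPKM in CD44lo Dusp2KO and 116 FPKM in CD44lo WT. Cd44 was at 65.3 to 79.9 FPKM in the 4 CD44hi libraries and at 1.33 and 1.43 FPKM in the CD44lo ones. The treatment text of the labels names Cd4-Cre Rpa1 floxed mice in place of Dusp2 knockouts, whereas Rpa1 was at 28.2 to 41.4 FPKM in Dusp2KO libraries and at 27.4 to 35.2 FPKM in WT ones. Xist, the RNA of the inactive X chromosome, stood at 15.1 and 15.5 FPKM in CD44hi Dusp2KO, at or below 0.00641 FPKM in both CD44hi WT libraries, at 0 FPKM in CD44lo Dusp2KO and at 0.00219 FPKM in CD44lo WT. The Y-linked Eif2s3y was present in all 6 libraries, at 13.4 to 20.3 FPKM. By these genes, sex composition differed along with genotype in CD44hi, and between the 2 Dusp2KO fractions, and cannot be told apart from those comparisons. Reads recovered from the values came to 23490008 in CD44lo Dusp2KO and to between 42816073 and 55830235 in the others, and mitochondrial genes took 2.73 and 2.94% of them in CD44hi Dusp2KO, 2.15 and 2.03% in CD44hi WT, 3.795% in CD44lo Dusp2KO and 2.56% in CD44lo WT. This share was higher in Dusp2KO in both fractions, and its part in the differences below was not tested.

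The cells were CD8 T cells by their markers. The 4 CD8 T cell markers in the table summed to 808 to 1197 FPKM per library, against at most 0.801 FPKM for the 4 CD4 T cell markers. The 2 myeloid markers in the table summed to at most 0.212 FPKM, the 2 NK cell markers to at most 0.823 FPKM, and the B cell marker Cd79a reached 0.379 FPKM.

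Both SOCS genes have letters of a cytokine-response motif shortly before their start, and those stretches are shown for that reason. All 6 genes were found in RefSeq's promoter table (GRCm38.p6), which gives 250 bases before and 50 after each start. In all, 3 motifs were searched on both strands: TTCNNNNGAA, the spacing that STAT6 favours, TTCNNNGAA, that of other STAT proteins, and GAAANNGAAA, the core of interferon-stimulated elements bound by IRF and STAT complexes. None of the 6 windows held TTCNNNNGAA, which 6.95% of 32851 promoter windows hold. The Socs1 window held GAAANNGAAA in 2 overlapping copies, at bases 83 to 74 and 77 to 68 before the start (3.44% of windows hold it), and the Socs3 window held 1 TTCNNNGAA, at bases 154 to 146 before the start (8.30% of windows). The stretches around them read as follows, 5′ to 3′ on the minus strand, with the matches in capitals, for Socs1 at chr16:10785544-10785679 and for Socs3 at chr11:117969452-117969580. A match is a description of the letters and not of binding.
Socs1: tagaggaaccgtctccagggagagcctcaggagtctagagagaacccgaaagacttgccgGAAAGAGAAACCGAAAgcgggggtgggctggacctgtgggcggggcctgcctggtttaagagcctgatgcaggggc
Socs3: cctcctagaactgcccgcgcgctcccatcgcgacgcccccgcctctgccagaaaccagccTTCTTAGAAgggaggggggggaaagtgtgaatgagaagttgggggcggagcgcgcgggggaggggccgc

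The 6 genes spanned a wide range of levels. Il4ra stood above 96.9 to 98.6% of rows in its libraries, Stat6 above 93.9 to 95.7%, Socs1 above 90.6 to 96.1%, and Gata3, the lowest, above 55.7 to 67.2%. In all 4 CD44hi libraries the order of FPKM was Il4ra, Stat6, Socs1, Nfil3, Socs3, Gata3. In both CD44lo libraries it was Il4ra, Socs1, Stat6, Socs3, Nfil3, Gata3, so that both SOCS genes stood a place higher than in CD44hi.

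**Figure D1:**
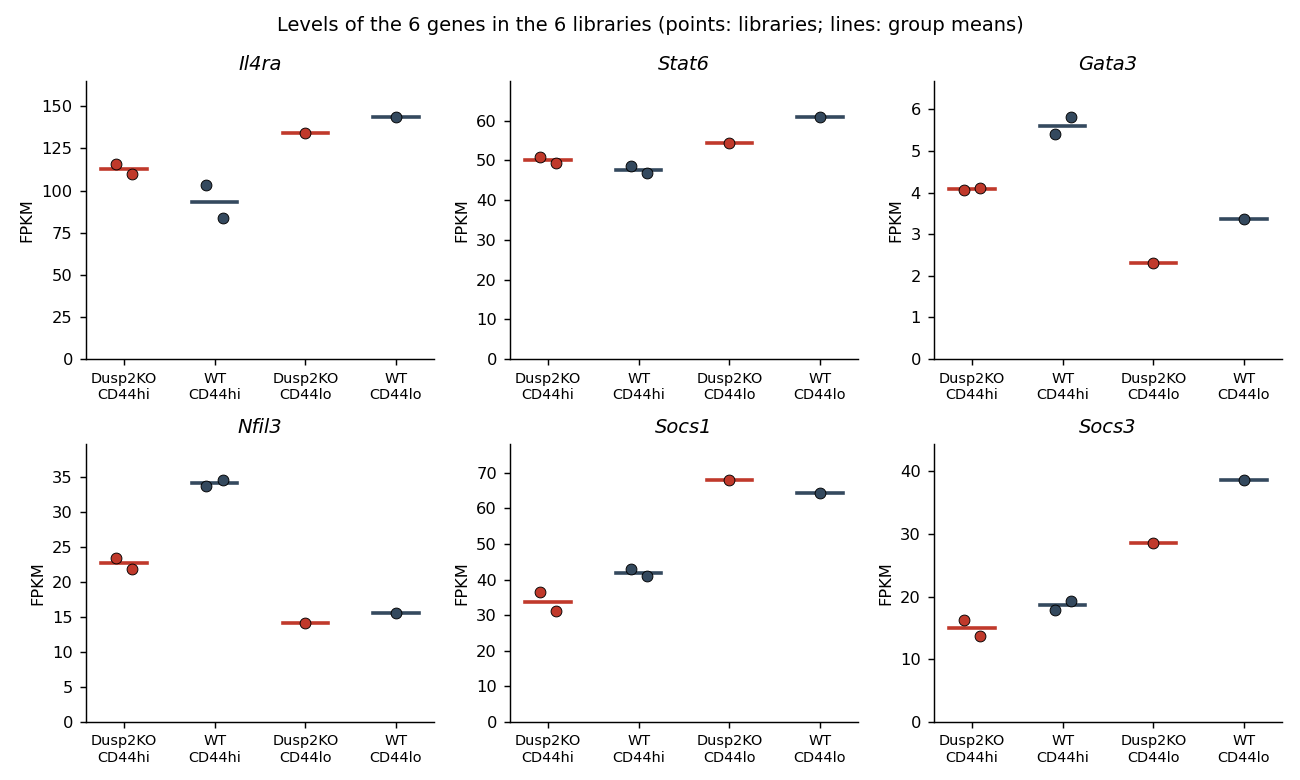
Level of each gene in FPKM (vertical axes from 0, 1 panel per gene) in each library (points) with the group mean (line), for the 4 groups of genotype and CD44 fraction. Nfil3 and Gata3 are highest in CD44hi WT, while Socs1 and Socs3 are highest in the CD44lo libraries.

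The first comparison asked what loss of Dusp2 goes with in the CD44hi cells. Nfil3, Gata3 and Socs1 were lower in Dusp2KO, Socs3 was lower without passing the threshold, and the genes of the receptor chain and of STAT6 did not pass it. Log2 differences are of FPKM + 1, which makes the change of low genes look smaller than it is, and the adjusted p-values throughout are those of limma after Benjamini-Hochberg correction for all 9691 genes.

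Il4ra encodes the chain that binds IL-4. It was at 116 and 109.6 FPKM in CD44hi Dusp2KO and at 103 and 83.7 FPKM in CD44hi WT. Both Dusp2KO libraries lay above both WT libraries, but the WT pair differed by 1.23-fold (95% counting interval 1.21 to 1.25), more than counting error. The log2 difference was 0.28 (SE 0.105, 95% interval 0.02 to 0.53, adjusted p = 0.0964 by limma). Without the first CD44hi WT library it was 0.43, the highest of 18 alternative fits, and the lowest of them gave 0.13. Il4ra passed the threshold in 2 of these 18 fits. Its partner Il2rg was at 272 and 289.5 FPKM in CD44hi Dusp2KO and at 395.5 and 289.7 FPKM in CD44hi WT, and the ratio of Il4ra to Il2rg was 0.426 and 0.379 in Dusp2KO against 0.261 and 0.289 in WT.

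Stat6 encodes the transcription factor that the receptor activates by phosphorylation, which RNA levels do not show. It stood at 51.0 and 49.3 FPKM in CD44hi Dusp2KO and at 48.6 and 46.8 FPKM in CD44hi WT. The Dusp2KO libraries were the higher ones, by little (log2 difference 0.07, 95% interval -0.08 to 0.22, adjusted p = 0.43 by limma).

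Gata3 encodes the zinc finger factor that drives type 2 cytokine genes in helper T cells. Its level was 4.07 and 4.12 FPKM in CD44hi Dusp2KO and 5.40 and 5.81 FPKM in CD44hi WT, with no overlap. It fell in Dusp2KO by 0.37 on the log2 scale (SE 0.082, adjusted p = 0.0208 by limma). Without the first or the second CD44hi Dusp2KO library it did not pass (adjusted p = 0.127 and 0.118). Tbx21, which encodes T-bet, a factor that opposes GATA3, rose by 0.52 (adjusted p = 0.0052), with 42.4 and 38.2 FPKM in CD44hi Dusp2KO against 27.9 and 27.6 FPKM in CD44hi WT. The ratio of Gata3 to Tbx21 was 0.0959 and 0.108 in CD44hi Dusp2KO and 0.193 and 0.210 in CD44hi WT. In the CD44lo libraries it was 0.0615 in Dusp2KO and 0.144 in WT, so the 3 Dusp2KO libraries had the lowest ratios.

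Nfil3 encodes a basic leucine zipper factor that IL-4 raises in lymphocytes and that natural killer cell development needs. Its level was 23.4 and 21.9 FPKM in CD44hi Dusp2KO and 33.7 and 34.6 FPKM in CD44hi WT. The gap between the groups was several times the gap within either, and the fall of 0.57 on the log2 scale (SE 0.0654, adjusted p = 0.00325 by limma) was the largest of the 6.

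Socs1 and Socs3 encode inhibitors, SOCS1 of JAK kinases downstream of interferon and IL-4 receptors and SOCS3 mainly of gp130-type receptors. Socs1 was at 36.5 and 31.1 FPKM in CD44hi Dusp2KO and at 42.9 and 40.9 FPKM in CD44hi WT, and fell by 0.30 on the log2 scale (SE 0.0874, adjusted p = 0.0445 by limma). Socs3 was at 16.2 and 13.7 FPKM in CD44hi Dusp2KO and at 17.9 and 19.3 FPKM in CD44hi WT, a log2 difference of -0.30 (SE 0.0897, adjusted p = 0.051 by limma). For both genes the Dusp2KO libraries lay below the WT ones, and for both the 2 Dusp2KO libraries differed from each other by 1.18-fold. The Socs1 call was lost under 8 of 18 alternatives (adjusted p = 0.345 without the second CD44hi Dusp2KO library and 0.0679 without the first WT one). Socs3 passed under 6 of 18 (adjusted p = 0.031 without the first Dusp2KO and 0.0333 without the first CD44hi WT library), so neither stood clear of the threshold. Per unit of Il4ra, Socs1 was at 0.315 and 0.283 in CD44hi Dusp2KO and at 0.415 and 0.489 in CD44hi WT.

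Of the 6 genes, 3 thus fell in CD44hi Dusp2KO, where 13.8% of all genes tested fell, and 0 rose, where 12.9% of all rose. At an unadjusted p under 0.05, 4 fell and 1 rose, and limma voom on recovered reads called 4 lower and 0 higher. The median log2 difference of the 6 was -0.30, beside -0.02 for all genes tested. Over all genes this difference rose with gene length (Spearman's rho 0.27, across genes of the same libraries). The first-minus-second difference of the CD44hi WT libraries also rose with gene length (Spearman's rho 0.32), so such a trend was present between replicates too. Nfil3 was longer than 17.4% of genes tested, Socs3 than 29.9%, Socs1 than 30.3%, Gata3 than 46.2%, Stat6 than 52.2% and Il4ra than 70.3%. With the trend on length removed from each library, Nfil3 (-0.49, adjusted p = 0.00253) and Gata3 (-0.36, adjusted p = 0.016) still passed, Socs1 did not (-0.26, adjusted p = 0.0561), and Il4ra was at 0.25 (adjusted p = 0.0743).

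**Figure D2:**
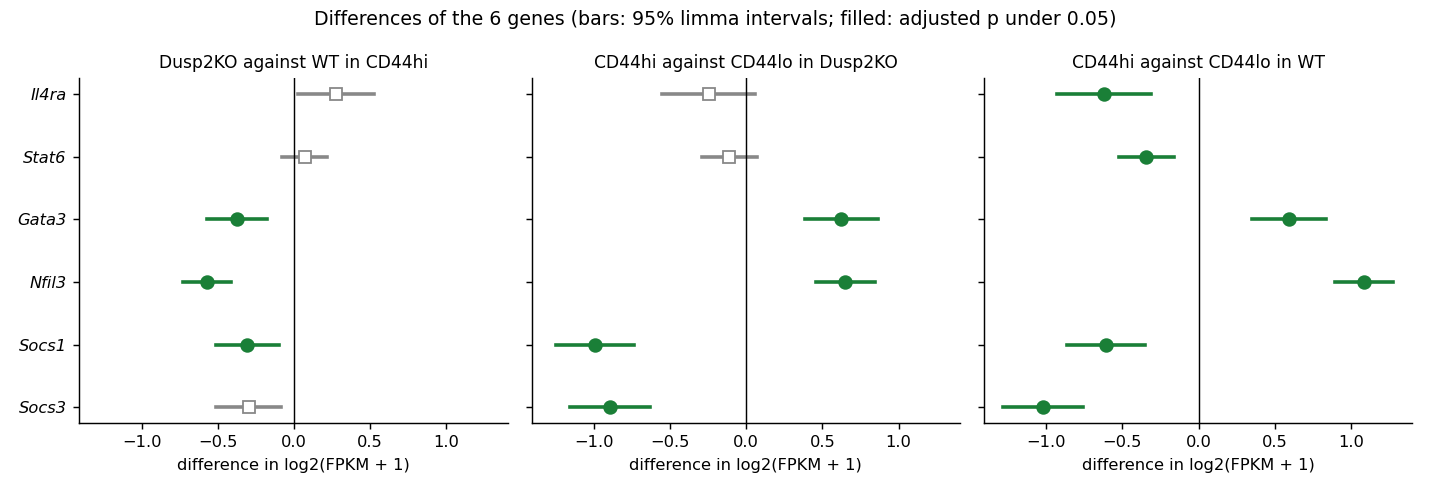
Difference in log2(FPKM + 1) of each gene (horizontal axis, with 95% limma intervals) in 3 comparisons, filled where the adjusted p was under 0.05. Gata3 and Nfil3 lie right of 0, and Socs1 and Socs3 left of it, in both comparisons of CD44hi with CD44lo.

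The second comparison set the CD44hi cells, sorted for a high level of this marker of activated and memory cells, against the CD44lo cells of the same genotype. Gata3 and Nfil3 were higher in CD44hi, and Socs1 and Socs3 lower, in each genotype. Each test rests on a lone CD44lo library that is assumed to vary like the CD44hi ones. In such bulk samples, more cells expressing a gene and more RNA of it per cell cannot be told apart.

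Nfil3 was at 22.7 ± 1.05 FPKM in CD44hi Dusp2KO (SD, n = 2), against 14.1 FPKM in CD44lo Dusp2KO, a log2 difference of 0.65 (adjusted p = 0.00159 by limma). In WT it was at 34.1 ± 0.625 FPKM in CD44hi (SD, n = 2) against 15.6 FPKM in CD44lo, and rose by 1.08 (adjusted p = 0.000321 by limma). Both CD44lo libraries stood below all 4 CD44hi libraries, and the order of the gene's levels over groups was CD44hi WT, CD44hi Dusp2KO, CD44lo WT, CD44lo Dusp2KO.

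Gata3 averaged 4.09 ± 0.0372 FPKM in CD44hi Dusp2KO (SD, n = 2), with 2.31 FPKM in CD44lo Dusp2KO, and rose by 0.62 (adjusted p = 0.00432 by limma). In WT it averaged 5.61 ± 0.289 FPKM in CD44hi (SD, n = 2), with 3.38 FPKM in CD44lo, and rose by 0.59 (adjusted p = 0.00751 by limma). The rises were of like size on a gene with few reads, from 219 in CD44lo Dusp2KO to 1310 in the library with most. The 5 markers of type 2 helper and innate type 2 lymphoid cells, which have much Gata3, summed to 1.23 to 1.27 FPKM in CD44hi Dusp2KO, 0.931 to 1.31 FPKM in CD44hi WT, 0.288 FPKM in CD44lo Dusp2KO and 0.292 FPKM in CD44lo WT. Most of that sum in CD44hi was Il1rl1, the IL-33 receptor, at 0.799 to 1.16 FPKM, while the defining cytokine gene Il13 was at 0 in CD44hi WT and in both CD44lo libraries. Ptgdr2 went the other way, at 0.0534 and 0.0429 FPKM in CD44hi Dusp2KO against 0.127 FPKM in CD44lo Dusp2KO, and at 0.148 and 0.0801 FPKM in CD44hi WT against 0.201 FPKM in CD44lo WT. Il5 was at 0.0299 FPKM or less in every library. Their part in the Gata3 difference was not tested.

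Socs1 ran the other way. It averaged 33.8 ± 3.88 FPKM in CD44hi Dusp2KO (SD, n = 2) against 68.0 FPKM in CD44lo Dusp2KO, and fell by 0.99 (adjusted p = 0.000981 by limma). In WT it averaged 41.9 ± 1.40 FPKM in CD44hi (SD, n = 2) against 64.3 FPKM in CD44lo, and fell by 0.61 (adjusted p = 0.00867 by limma). Both CD44lo libraries stood above all 4 CD44hi libraries.

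Socs3 did the same at a lower level. It averaged 15.0 ± 1.73 FPKM in CD44hi Dusp2KO (SD, n = 2) against 28.6 FPKM in CD44lo Dusp2KO, and fell by 0.89 (adjusted p = 0.00159 by limma). In WT it averaged 18.6 ± 0.952 FPKM in CD44hi (SD, n = 2) against 38.6 FPKM in CD44lo, and fell by 1.02 (adjusted p = 0.00133 by limma). Relative to each other the SOCS genes were steadier: the ratio of Socs1 to Socs3 lay between 2.12 and 2.39 in 5 libraries and at 1.66 in CD44lo WT.

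The receptor chain and STAT6 were lower in CD44hi, past the threshold in WT. Il4ra averaged 112.8 ± 4.57 FPKM in CD44hi Dusp2KO (SD, n = 2) against 134 FPKM in CD44lo Dusp2KO, a log2 difference of -0.25 (adjusted p = 0.166 by limma, and 0.0131 or 0.0129 without the first or second CD44hi WT library, which enter through the shared spread). In WT, Il4ra averaged 93.4 ± 13.8 FPKM in CD44hi (SD, n = 2) against 143.5 FPKM in CD44lo, and fell by 0.62 (adjusted p = 0.0155 by limma). Stat6 averaged 50.1 ± 1.20 FPKM in CD44hi Dusp2KO (SD, n = 2) against 54.3 FPKM in CD44lo Dusp2KO (log2 difference -0.11, 95% interval -0.30 to 0.08, adjusted p = 0.268 by limma). In WT it averaged 47.7 ± 1.24 FPKM in CD44hi (SD, n = 2) against 60.9 FPKM in CD44lo, and fell by 0.35 (adjusted p = 0.0187 by limma). For both genes the order over groups was CD44lo WT, CD44lo Dusp2KO, CD44hi Dusp2KO, CD44hi WT, and the neighbours CD44hi Dusp2KO and CD44hi WT did not pass a test of their difference.

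In Dusp2KO, 2 of the 6 were higher in CD44hi, where 23.6% of all genes tested were higher, and 2 were lower, where 16.5% of all were lower. In WT, 2 were higher (15.4% of all genes) and 4 lower (10.7% of all genes). The median log2 difference of the 6 was -0.18 in Dusp2KO, beside 0.05 for all genes, and -0.48 in WT, also beside 0.05. In Dusp2KO this difference also rose with gene length (Spearman's rho 0.34, across genes), and with that trend removed Il4ra passed as well (-0.39, adjusted p = 0.0258). The 2 comparisons take their differences from different libraries but share their estimate of spread, so their p-values are not independent. Xist also differed between the Dusp2KO fractions, as given above.

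Whether the fraction difference depended on genotype was tested as an interaction, the difference in Dusp2KO minus that in WT. It passed in 0 of the 6 genes, against 4.22% of all genes tested; 2 of the 6 had an unadjusted p under 0.05, and limma voom on recovered reads called 0. The estimates nearest the threshold were -0.43 for Nfil3 (SE 0.113, adjusted p = 0.0733 by limma) and -0.39 for Socs1 (adjusted p = 0.155 by limma). That for Gata3 was 0.03 (adjusted p = 0.908 by limma) and that for Il4ra was 0.37 (adjusted p = 0.226 by limma). With the first or the second CD44hi WT library left out, Nfil3 was at -0.45 and -0.42, and without the first Il4ra was at 0.52. Over 14 alternative fits the estimate ran from -0.48 to -0.25 for Nfil3, which passed the threshold in 3 of them. For Il4ra it ran from 0.22 to 0.53, and passed in 1. In the first fit given here, of all 6 libraries, the genotypes are thus not shown to differ in how any of the 6 genes changed with the fraction.

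The 2 CD44lo libraries, 1 per genotype, were compared without a test, and intervals cover counting error only. The ratio of Dusp2KO to WT was 0.683 for Gata3 (95% interval 0.584 to 0.797) and 0.739 for Socs3 (0.702 to 0.778). It was 0.903 for Nfil3 (0.825 to 0.989), 0.892 for Stat6 (0.865 to 0.920), 0.934 for Il4ra (0.918 to 0.950) and 1.06 for Socs1 (1.02 to 1.10). Gata3 and Socs3 were thus the members furthest apart, and 0 of the 6 reached a difference of 2-fold on the log2(FPKM + 1) scale, which 1.68% of all genes tested did.

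**Figure D3:**
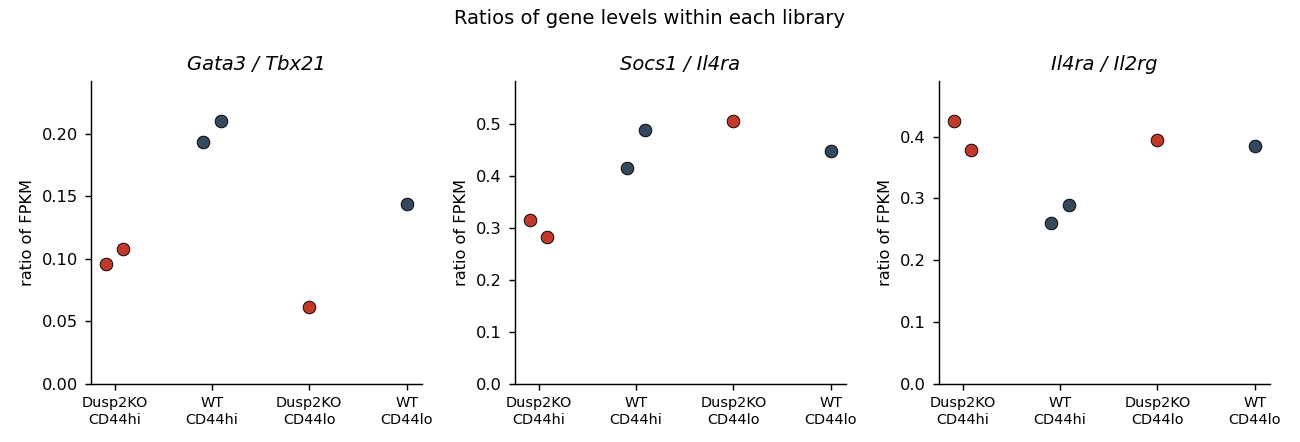
Ratio of FPKM of 2 genes within each library (points; vertical axes from 0) for Gata3 to Tbx21, Socs1 to Il4ra and Il4ra to Il2rg, by group. The 3 Dusp2KO libraries have Gata3 to Tbx21 ratios of 0.0615 to 0.108, below the 3 WT libraries at 0.144 to 0.210.

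The counts for the lists that follow stand beside these shares of all genes tested: 12.9% rose and 13.8% fell in CD44hi Dusp2KO, 23.6% were higher and 16.5% lower in CD44hi of Dusp2KO than in CD44lo, and 15.4% were higher and 10.7% lower in CD44hi of WT. Around the receptor, 6 of 8 genes of receptor chains and Janus kinases were tested. Jak2, which encodes a kinase used mainly by other cytokine receptors, rose in CD44hi Dusp2KO by 0.23 (adjusted p = 0.0372), and 0 fell; this call was lost without the first or the second CD44hi Dusp2KO library (adjusted p = 0.18 and 0.313). Jak1, whose kinase binds IL-4Rα, was lower in CD44hi than in CD44lo in both genotypes, with log2 differences of -0.33 in Dusp2KO (adjusted p = 0.0129, and 0.097 or 0.0894 without the first or second CD44hi library) and -0.82 in WT (adjusted p = 0.000639). Between fractions, 1 gene of the list was higher and 1 lower in CD44hi of Dusp2KO, and 0 higher and 2 lower in CD44hi of WT. Its median was 0.03 in CD44hi Dusp2KO against WT, beside -0.02 for all genes. Il13ra1, which gives the alternative receptor that also binds IL-13, was at 0 in 5 libraries and at 0.0212 FPKM in CD44lo WT. The ligands were scarcely seen: of 8 type 2 cytokine genes 7 were in the table, 0 were tested, and the highest single value was 0.282 FPKM. Il4 itself was at 0.144 and 0.262 FPKM in CD44hi Dusp2KO, 0.0375 and 0.0432 FPKM in CD44hi WT, 0.171 FPKM in CD44lo Dusp2KO and 0.0640 FPKM in CD44lo WT, on 2 to 17 reads.

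Among the other STAT genes, Stat2, which encodes a STAT of the type I interferon receptor, fell in CD44hi Dusp2KO (log2 difference -0.52, adjusted p = 0.00493). It was at 13.8 and 13.3 FPKM in CD44hi Dusp2KO, against 20.8 and 19.0 FPKM in CD44hi WT, with no overlap. It was also lower in CD44hi than in CD44lo, with a log2 difference of -0.92 in Dusp2KO (adjusted p = 0.000594) and of -0.89 in WT (adjusted p = 0.000886). Stat5a, a STAT of the IL-2 receptor, was higher in CD44hi in both genotypes, by 0.51 in Dusp2KO (adjusted p = 0.00415) and by 0.43 in WT (adjusted p = 0.0112). Stat3, a STAT of gp130-type receptors, was lower in CD44hi of WT (log2 difference -0.52, adjusted p = 0.0059) and had a log2 difference of -0.21 in Dusp2KO (adjusted p = 0.0791); the interaction did not pass (adjusted p = 0.146).

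Of 13 tested inhibitors of cytokine signalling, 3 fell in CD44hi Dusp2KO and 0 rose. Beside Socs1 these were Cish, a STAT5-induced SOCS family member, by 0.41 (adjusted p = 0.0164, and 0.126 in the additive model), and Ptpn6, which encodes the phosphatase SHP-1, by 0.33 (adjusted p = 0.0135, and 0.0613 or 0.139 without the first or second CD44hi Dusp2KO library). The list's median was -0.08, beside -0.02 for all genes. In both genotypes 1 was higher and 4 were lower in CD44hi than in CD44lo, and the higher one was Socs7 in Dusp2KO (0.54, adjusted p = 0.00666) and Cish in WT (0.62, adjusted p = 0.00697). Cish and Socs1, both inhibitors, thus lay on opposite sides of the fraction difference in WT.

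Of 8 tested adaptors and coactivators, 1 rose and 1 fell in CD44hi Dusp2KO, with a median of 0.02 beside -0.02 for all genes. Irs2, an adaptor that docks on IL-4Rα, fell by 0.70 (adjusted p = 0.00585), with 2.66 and 2.42 FPKM in Dusp2KO against 5.15 and 4.38 FPKM in WT. Irs2 was also lower in CD44lo Dusp2KO, at 1.86 FPKM, than in CD44lo WT, at 4.26 FPKM. Dock2, a guanine exchange factor of lymphocyte migration, rose by 0.28 (adjusted p = 0.0193 by limma). That call was lost under 5 of 18 alternatives, and over all 18 the log2 difference ran from 0.03 to 0.33. In CD44lo, Dock2 went the other way, at 27.35 FPKM in Dusp2KO and 38.5 FPKM in WT. Between fractions, 2 were higher and 1 lower in CD44hi of Dusp2KO, while 0 were higher and 4 lower in CD44hi of WT. Nmi, which binds STAT proteins, was lower in both (log2 difference -0.96 in Dusp2KO, adjusted p = 0.00145, and -1.09 in WT, adjusted p = 0.00123). Parp14, a coactivator of STAT6, was at 21.0 and 22.3 FPKM in CD44hi Dusp2KO, 22.5 and 20.3 FPKM in CD44hi WT, 23.1 FPKM in CD44lo Dusp2KO and 43.5 FPKM in CD44lo WT, which was the 1 library that stood apart.

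Of 14 tested partners and opponents of GATA3, 1 rose in CD44hi Dusp2KO, Tbx21, and 4 fell, among them Gata3 itself and Bcl6, a repressor, by 0.54 (adjusted p = 0.0141, and 0.0739 without the first CD44hi Dusp2KO library). Bcl6 was low, at 1.33 and 1.61 FPKM in CD44hi Dusp2KO and 2.74 and 2.44 FPKM in CD44hi WT. Eomes, the T-box factor that IL-4 promotes in CD8 T cells, was at 68.6 and 68.3 FPKM in CD44hi Dusp2KO and at 66.3 and 69.7 FPKM in CD44hi WT, so these groups overlapped (log2 difference 0.01, adjusted p = 0.928). It was at 73.0 FPKM in CD44lo Dusp2KO and 92.3 FPKM in CD44lo WT. The log2 difference of CD44hi from CD44lo for Eomes was -0.09 in Dusp2KO (adjusted p = 0.369 by limma) and -0.44 in WT (adjusted p = 0.00859 by limma). Its interaction did not pass (adjusted p = 0.105 by limma). The list's median in CD44hi Dusp2KO against WT was -0.14, beside -0.02 for all genes. Between fractions, 3 were higher and 2 lower in CD44hi of Dusp2KO, and 3 higher and 4 lower in CD44hi of WT. Tcf7, the factor of naive and memory T cells that helps to start Gata3 in helper cells, was lower in CD44hi (log2 difference -0.85 in Dusp2KO, adjusted p = 0.000684, and -0.82 in WT, adjusted p = 0.00102).

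A wider list of 16 genes that IL-4 or STAT6 raises in lymphocytes, the members Il4ra, Gata3, Nfil3 and Socs1 included, had 11 tested. In CD44hi Dusp2KO, 0 of them rose and 4 fell, with a median of -0.30 beside -0.02 for all genes. The 4 were Nfil3, Cish, Gata3 and Socs1, so the members made up most of that count. Between fractions, 4 were higher and 2 lower in CD44hi of Dusp2KO, and 7 higher and 4 lower in CD44hi of WT, with medians of 0.13 and 0.55 beside 0.05 for all genes in each. The chemokine receptor genes of the list were among the higher ones: Ccr4 was higher by 1.26 in Dusp2KO (adjusted p = 0.00258) and by 0.69 in WT (adjusted p = 0.0312), and Ccr8 by 0.76 in Dusp2KO (adjusted p = 0.0098) and by 0.93 in WT (adjusted p = 0.00698).

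**Figure D4:**
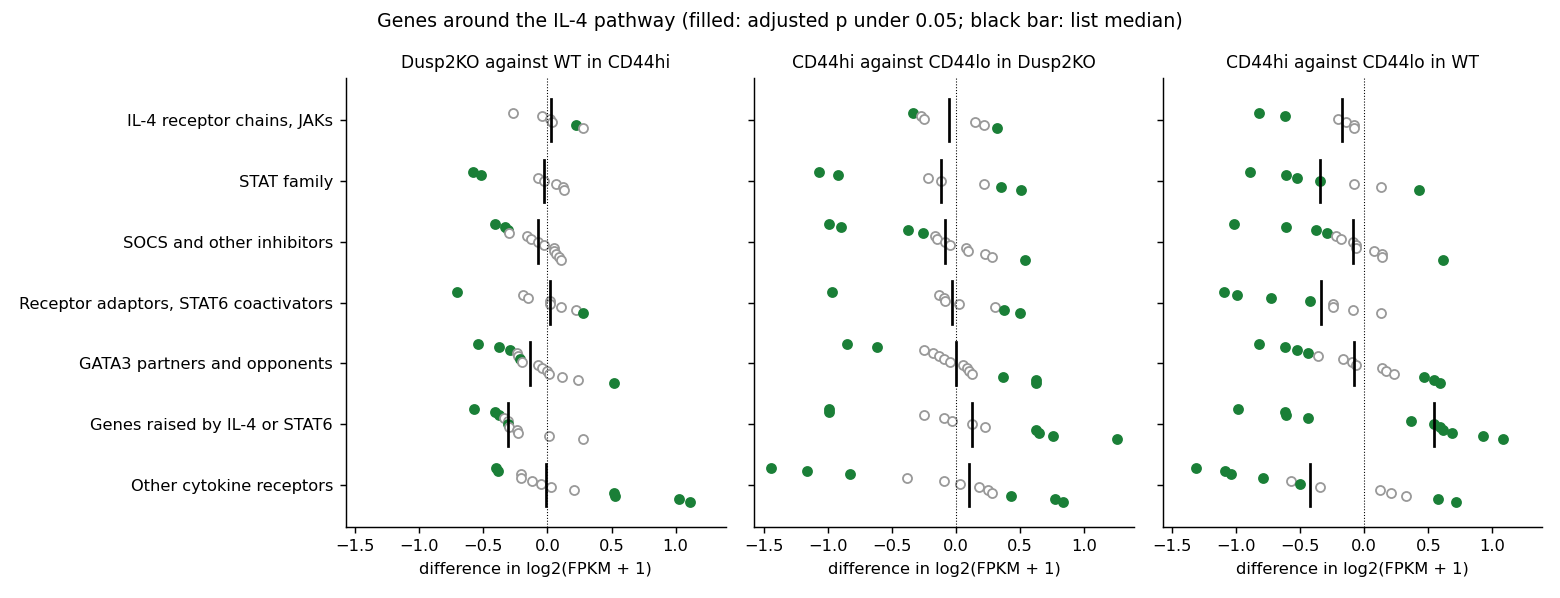
Difference in log2(FPKM + 1) of every tested gene of 7 lists around the IL-4 pathway (points, filled where the adjusted p was under 0.05; black bars are list medians), in 3 comparisons. Of 11 tested genes raised by IL-4 or STAT6, 0 rose and 4 fell in CD44hi Dusp2KO against WT, where 12.9% of all genes rose and 13.8% fell. In CD44hi against CD44lo of WT, 7 were higher and 4 lower (15.4% and 10.7% of all genes). In Dusp2KO, 4 were higher and 2 lower (23.6% and 16.5% of all genes).

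Receptors of other cytokines restrained by SOCS proteins moved in both directions. Of 12, 4 rose and 2 fell in CD44hi Dusp2KO, with a median of -0.01 beside -0.02 for all genes. Il12rb1, a chain of the IL-12 receptor, rose by 1.11 (adjusted p = 0.00372), Il2ra by 1.03 (adjusted p = 0.00163) and Il7r by 0.52 (adjusted p = 0.00864). The interferon receptor genes Ifnar1 and Ifngr2 fell, by 0.40 and 0.39 (adjusted p = 0.00973 and 0.0145). The genes of their partner chains, Ifnar2 and Ifngr1, did not pass (log2 differences -0.21 and -0.12, adjusted p = 0.19 and 0.326 by limma). Il2ra was at 90.0 and 95.1 FPKM in CD44hi Dusp2KO against 48.9 and 41.0 FPKM in CD44hi WT. Between fractions, 3 were higher and 3 lower in CD44hi of Dusp2KO, and 2 higher and 5 lower in CD44hi of WT. Ifngr1, a chain of the interferon-γ receptor, was lower in both (log2 difference -1.44 in Dusp2KO, adjusted p = 0.000259, and -1.04 in WT, adjusted p = 0.00102). The CD3 genes among the CD8 T cell markers moved as well: Cd3e fell by 0.64 (adjusted p = 0.00433) and Cd3d by 0.40 (adjusted p = 0.0136) in CD44hi Dusp2KO, while Cd8a and Cd8b1 did not pass the threshold. In CD44hi against CD44lo, 4 of the 4 CD8 T cell markers were lower in Dusp2KO and 1 of 4, Cd8b1, in WT. Their part in the differences of the 6 genes was not tested.

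The 6 genes fell into 3 pairs by their profile over the 6 libraries. Likeness was measured as the root mean square distance between log2(FPKM + 1) profiles after subtraction of each gene's mean, and as a description it has no test. The nearest members were Il4ra and Stat6 (0.148), Gata3 and Nfil3 (0.169), and Socs1 and Socs3 (0.170), while distances across these pairs ran from 0.308 to 0.872. The 6 points of each profile are the libraries described above, so the differences between fractions and genotypes enter every distance.

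Among 6304 genes that averaged 5 FPKM or more, the nearest to Il4ra were H2-Q7, an MHC class I gene (0.0408), and Tapbpl, which encodes a peptide editor of MHC class I (0.0689). Those nearest to Stat6 were Adnp2 (0.0259) and Rbms1 (0.0329), and those nearest to Gata3 were Carhsp1 (0.0788) and Vat1 (0.0917). Nfil3 had the least close neighbours, Gabarapl1 (0.117) and Cd200 (0.138). Socs1 was nearest to Sfn (0.0710) and Thap3 (0.0784). Nearest to Socs3 were Dtx3l, an interferon-induced ubiquitin ligase (0.0719), and Arid5a (0.0749), which like Socs3 were highest in CD44lo WT.

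In the GENCODE annotation of GRCm38, Il4ra shares 1342 bases with the antisense gene Gm44876, Stat6 shares 40 bases with Nab2 on the other strand, and Gata3 shares 2670 bases with 4930412O13Rik on the other strand, 1614 bases with the antisense gene Gm13256 and 6500 bases with 9230102O04Rik on its own strand. Whether reads were counted by strand is not given in the sources used here, so reads in shared stretches cannot be told apart. Nfil3, Socs1 and Socs3 had no such overlap.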

How the data were processed

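The authors deposited 1 table of FPKM values, with a column for each of the 6 libraries. Per the labels' protocols, the libraries were Illumina libraries of total RNA from Trizol extraction, although the description names 10X Genomics. The tool was HISAT2 2.0.5, and mm39 and hg38 are listed as builds with no role stated, per the submitters' processing notes. The sources used here do not give the read counter, its annotation or its use of strand. Groups were taken from sample titles, and 0 columns were left unused.

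A gene's FPKM values step by the worth of 1 read, which gave back whole reads: of 16220 rows with values in at least 2 libraries, 16220 (100%) were whole to a tolerance of 1e-06 reads, against 25 of 2000 perturbed control rows. In the 1902 rows with a value in 1 library, that value was set to 1 read. Recovered reads are the smallest that give these values. They served for depth, for 95% counting intervals, which cover counting error only, and for gene length.

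Tests used log2(FPKM + 1), with 1 as the pseudocount, of the 9691 genes averaging 1 FPKM or more, in limma 3.58.1 (R 4.3.3). The model had 1 coefficient per group (2 residual degrees of freedom), a variance trend, two-sided p-values and Benjamini-Hochberg adjustment at 0.05 over all genes tested, and was tried on simulated data. Sequences come from RefSeq (GRCm38.p6).

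The 6 genes and the gene lists were chosen with earlier results of these data known. Named from each list were up to 3 genes per comparison with the smallest p past the threshold, besides the 6 genes, checks of the labels and the 2 genes nearest to each of the 6 in profile. Some results that the rule would name are not reported here. Ifnar1, Ifnar2, Ifngr2, Eomes, Il2rg, Il13ra1, Il4, Eif2s3y, Xist, Il1rl1, Il13, Il5, Ptgdr2 and Cd79a were named after their values were seen. Alternatives were a pseudocount of 0.1, no filter, a 5 FPKM minimum, quantile normalization, a total of 1000000 per library, median-ratio scaling, loess removal of the trend on gene length, limma voom on recovered reads, no variance trend, a replicate block, each library left out, the CD44hi libraries alone and an additive model.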

Additional observations from a re-analysis of the deposited data

Results flagged for a closer look

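In 5 genes of the surrounding lists the interaction in limma passed the threshold, as it did in 4.22% of all 9691 genes tested. These were 2 of 8 adaptors and coactivators, 1 of 13 inhibitors, 1 of 14 GATA3 partners and opponents, and 1 of 12 other cytokine receptors. It passed in 0 of 6 genes of receptor chains and Janus kinases, 0 of 7 STAT genes and 0 of 11 genes raised by IL-4 or STAT6. The signed log2 difference in Dusp2KO minus that in WT was 1.37 for Il12rb2, a chain of the IL-12 receptor (adjusted p = 0.0297), 0.90 for Parp14 (adjusted p = 0.0323), 0.76 for Dock2 (adjusted p = 0.0316), 0.72 for Socs7 (adjusted p = 0.0458) and 0.72 for Chd4, a chromatin remodeller (adjusted p = 0.0427). For Il12rb2, Parp14 and Dock2 the difference itself was 0.29, -0.09 and 0.03 in Dusp2KO and -1.09, -0.99 and -0.73 in WT, so that it was the greater one, and negative, in WT. For Socs7 and Chd4 the difference was 0.54 and 0.62 in Dusp2KO and -0.18 and -0.09 in WT, so that it was the greater one, and positive, in Dusp2KO. These 2 genes were lowest in the CD44lo Dusp2KO library, at 4.02 and 87.2 FPKM, which was also the library with the fewest reads. In each of the 5 the CD44lo WT library held the highest WT value. Il12rb2 was at 7.44 and 7.75 FPKM in CD44hi Dusp2KO, 5.58 and 4.42 FPKM in CD44hi WT, 6.05 FPKM in CD44lo Dusp2KO and 11.7 FPKM in CD44lo WT.

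Each of these tests rests on 1 CD44lo library per genotype. Over all genes tested the interaction rose with gene length (Spearman's rho 0.48, across genes of the same 6 libraries), and Dock2, Parp14, Chd4 and Socs7 were longer than 94.4%, 89.4%, 83.8% and 80.5% of genes tested, against 43.9% for Il12rb2. With the trend on length removed from each library, the values were 1.40 for Il12rb2 (adjusted p = 0.0155), 0.66 for Parp14 (adjusted p = 0.0358), 0.44 for Dock2 (adjusted p = 0.0976), 0.56 for Socs7 (adjusted p = 0.062) and 0.53 for Chd4 (adjusted p = 0.0657). Without the first or the second CD44hi Dusp2KO library, Socs7 (adjusted p = 0.0903 and 0.066) and Chd4 (adjusted p = 0.0773 and 0.051) did not pass.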

How the results depend on the processing

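Of the 6 genes, 3 passed in CD44hi Dusp2KO against CD44hi WT, 0 with no filter on low values and 5 with the replicate block (Il4ra, adjusted p = 0.0154, and Socs3, 0.00893, besides the 3), and 1 to 4 with 1 library left out (1 without the second CD44hi Dusp2KO library). In CD44hi against CD44lo of WT, 6 passed, and 1 with no filter. In Dusp2KO, 4 passed, and 3 to 5 under the alternatives. The interaction passed in 0, in 1 with the replicate block, and in 0 to 2 with 1 library left out. Whether same-numbered libraries belong together is not in the labels. Across 9691 genes, the first-minus-second difference of the CD44hi Dusp2KO libraries had a correlation of 0.0224 with that of the CD44hi WT libraries. So low a correlation shows little shared deviation by number, but cannot show how the libraries were made. In all, 3 estimates that did not pass changed sign: Stat6 in Dusp2KO against WT was -0.0072 in the additive model, Stat6 in CD44hi against CD44lo of Dusp2KO was 0.0236 with a total of 1000000, and the Gata3 interaction was -0.0405 with quantile normalization and -0.0145 to 0.0747 with 1 library left out (-0.0145 without the first CD44hi WT library). The fall of Nfil3 in Dusp2KO passed in all but the fit with no filter (adjusted p = 0.0631), and its alternatives ran from 7.3e-06 to that value.

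Counts over all genes moved more. In CD44hi Dusp2KO against CD44hi WT, 2586 passed, 2 with no filter, 1185 and 1088 without the first and second CD44hi Dusp2KO library, 4092 without the first WT one and 1008 in the additive model. In CD44hi against CD44lo, 3888 passed in Dusp2KO (2085 with no filter, 2559 and 2524 without its first and second CD44hi library) and 2527 in WT (1170 with no filter, 3825 without its second CD44hi library). The interaction passed in 409 (39 with no filter, 684 with median-ratio scaling, 238 with the length trend removed, 117 with no variance trend, 1565 with the replicate block, 3046 and 1734 without the first and second CD44hi WT library). No filter adds rows near 0; the cause of the other changes was not tested. Gata3 gave no value at a minimum of 5 FPKM.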
